A study of Mus musculus with 6 samples.

Results

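Interferon-induced antiviral effectors are genes that a cell switches on after it senses interferon, and the products of many of them hinder a virus directly. A list of 37 such genes was taken by gene symbol, and 35 of them had a probe set annotated to that gene alone, among 30702 genes with such a probe set. Ifi44 and Phf11d had none and were not analysed here. Each gene was read from its brightest probe set by the mean of the 6 arrays, and 34 of the 35 passed a filter on low values (a mean of at least 5.40 on the log2 scale), Slfn5 being the one below it.

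The genes were measured in mouse bone marrow stromal cells (BMSCs), the adherent marrow cells from which bone, fat and cartilage cells arise. Cells from femurs of 3-month-old mice and of 18-month-old mice, called young and aged here, were sorted as Sca-1+ CD29+ CD45- CD11b- and expanded in culture beyond passage 1. Total RNA of each age was hybridised to 3 Affymetrix arrays, 6 in all. Strain and sex are not given in the sources used here, and the labels name the arrays of an age as biological replicates and do not tie them to separate mice, so a p-value here reflects array-to-array spread, which may be technical. They name no batch of culture or hybridisation either, and any such batch cannot be told apart from age.

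Type I interferons bind the receptor pair IFNAR1 and IFNAR2, whose kinases JAK1 and TYK2 activate STAT2. A complex that holds STAT2 and IRF9 binds the interferon-stimulated response element (ISRE) before the start of its target genes. The products of those targets block virus entry, bind or degrade viral RNA, starve the polymerase of nucleotides or hold virus particles at the cell surface, and stromal cells, like most cells, can make them.

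Array values were even: the median transcript cluster read 5.39 to 5.44 on the log2 scale on the 6 arrays. Negative control probe sets, which should find no target, gave a mean below 7.61 in 95% of cases, and a value under 7.61 is called dim here. The median negative control value was 4.93 to 5.06 on the young and 4.62 to 4.67 on the aged arrays. Probe set by probe set, the aged minus young difference had a median of -0.26 on the log2 scale over 5222 negative controls and of -0.15 over 1324 positive controls. Single negative controls differed by -2.36 to 1.86, and the central 95% of them by -1.39 to 0.57. The 23 antigenomic classes, which match no mouse sequence, differed by 0.01 to 0.29 upward, and the brightest of them read up to 9.19 on an array, so a value above 7.61 can still be background. Of the sort markers, Itgb1 (CD29) was bright at 11.86 and 11.76, and Ptprc (CD45) and Itgam (CD11b) were dim at 3.65 and 5.26 in young and 3.62 and 5.24 in aged cells. Ly6a (Sca-1) was not analysed here. The stromal genes Col1a1, Col1a2 and Pdgfrb were bright, at 12.43, 12.41 and 11.51 in young and 13.22, 12.98 and 11.71 in aged cells, while Thy1, Eng, Nt5e and Lepr were dim in both ages. Of the 9 stromal markers tested, 6 rose and 1 fell, beside 18.4% and 22.1% of all genes tested. Cxcl12 rose by 2.25, Vcam1 by 1.01, Col1a1 by 0.79, Col1a2 by 0.57, Pdgfrb by 0.20 and Cd44 by 0.19, and Nt5e fell by 0.54. The 6 thus rose alongside the effectors described next, and their part in those differences was not tested.

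Of the 34 antiviral effector genes tested, 33 rose with age, none had a difference below 0, and Ifitm1 did not pass (limma, Benjamini-Hochberg adjusted p under 0.05 over 20187 genes). Of all genes tested, 18.4% rose and 22.1% fell. The list was chosen with earlier results of these data known, so its share beside that of all genes is a description. The differences of the 33 that rose ran from 0.51 to 4.08 on the log2 scale, all larger than the 0.29 of the antigenomic classes. Of the 33, 31 rose by more than 0.57, the upper bound of the central 95% of negative controls, Isg20 and Daxx being the exceptions. A rise of more than 1.86, the largest upward difference of a negative control, was seen in 16. The most extreme negative control difference was downward, at -2.36. The median difference over the 34 was 1.72, beside 0.01 over all genes tested. A rise of at least 1 on the log2 scale was seen in 28 of the 34, beside 2.04% of all genes, and one of at least 2 in 15, beside 0.560%. When tested against a difference of 0.3, 33 still passed, beside 5.79% of all genes. The lowest aged array lay above the highest young array in 33 of the 34, beside 24.4% of all genes. In these bulk samples, more cells that express a gene and more RNA per cell cannot be told apart, and with 3 arrays per age the smallest two-sided exact permutation p for any 1 gene is 0.1.

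**Figure D1:**
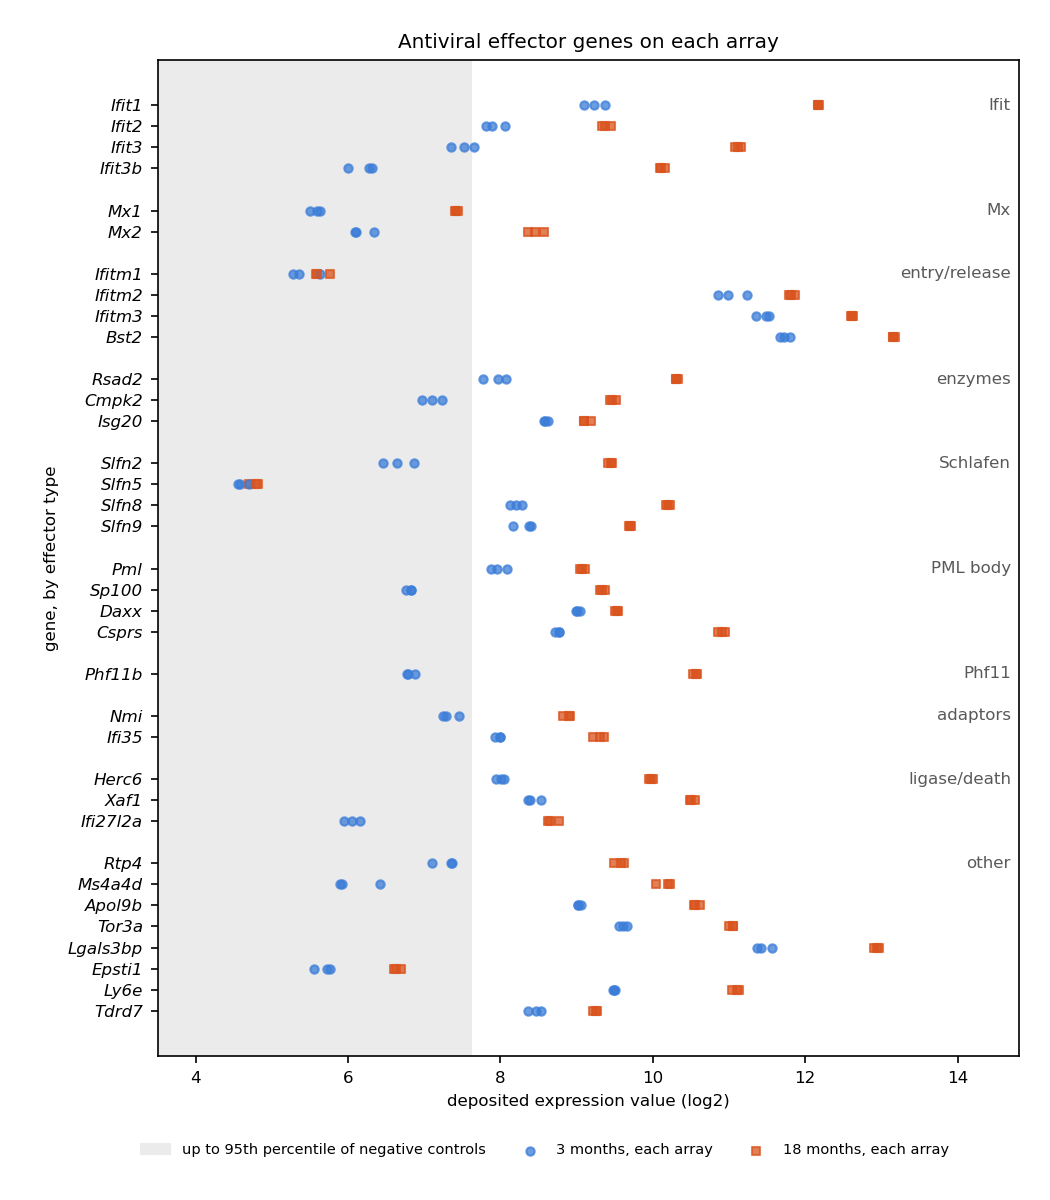
Deposited log2 values of the 35 measured antiviral effector genes (rows, grouped by effector type) on each of the 3 young (circles) and 3 aged (squares) arrays. The grey area marks values up to 7.61, below which 95% of negative controls lie. The 2 colours are apart in every row other than Ifitm1 and Slfn5.

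Levels on the young arrays were dim for 15 of the 35 genes, and 4 of these, Mx1, Ifitm1, Slfn5 and Epsti1, were dim in aged cells as well. For the 20 genes above the dim range in both ages, folds of aged over young ran from 1.42 to 7.65, with a median of 2.73. For 11 genes that were dim in young cells alone, the fold is given as a lower bound, against the 95th percentile of the negative controls on each young array (7.82 to 7.88) where the gene itself read less. These bounds ran from 1.53 to 9.65.

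The ISRE was searched on either strand as GAAA, any 2 bases and GAAA again, which leaves out its flanks and less exact copies. RefSeq windows of build GRCm38.p6, from 250 bases before to 50 bases after each annotated start, were at hand for 30 of the 37 genes. Those letters stood in at least 1 window of 13 of the 30 genes (43.3%), beside 3.99% of all 27025 genes of the table (3.44% of 32851 windows). The letters TTCNNNGAA of the gamma-activated site (GAS) stood in windows of 5 of the 30, beside 9.55% of all genes. The GAS letters read the same on both strands, and in Ifitm3 and in Bst2 they share bases with the ISRE letters. Stretches of 50 bases are shown for 11 of the 13 genes, to set genes that rose the most (Ifit3b, Phf11b, Ifit3, Ifit1) beside Slfn5, which holds the letters and was dim and below the filter. Each is written 5′ to 3′ along its gene, with the first match of the ISRE letters, or of their reverse complement, in capitals. In Ifit1, Bst2 and Apol9b a further match, starting at -85, -124 and -31 from the annotated start, lies within the stretch. That of Ifit1 is left in lower case. Those of Bst2 and Apol9b overlap the first match, so they begin within the capitals and end in lower case. Ifit3 and Ifit3b hold a further match outside the stretch, at -122 and -154.
Ifit1, chr19:34640765-34640814, plus strand: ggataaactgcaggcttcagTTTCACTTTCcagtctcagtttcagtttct
Ifit3, chr19:34583353-34583402, plus strand: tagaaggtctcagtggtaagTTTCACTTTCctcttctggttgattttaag
Ifit3b, chr19:34607749-34607798, plus strand: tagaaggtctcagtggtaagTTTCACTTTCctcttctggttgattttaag
Bst2, chr8:71537573-71537622, minus strand: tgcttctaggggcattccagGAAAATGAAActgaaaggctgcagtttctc
Ifitm2, chr7:140955978-140956027, minus strand: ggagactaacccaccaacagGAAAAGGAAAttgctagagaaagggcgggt
Rsad2, chr12:26456543-26456592, minus strand: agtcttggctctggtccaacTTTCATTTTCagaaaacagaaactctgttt
Slfn5, chr11:82951927-82951976, plus strand: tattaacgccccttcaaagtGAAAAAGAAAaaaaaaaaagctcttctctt
Slfn8, chr11:83020829-83020878, minus strand: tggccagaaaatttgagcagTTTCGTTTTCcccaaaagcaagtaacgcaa
Slfn9, chr11:82991846-82991895, minus strand: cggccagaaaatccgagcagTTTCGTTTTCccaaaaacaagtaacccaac
Phf11b, chr14:59341351-59341400, minus strand: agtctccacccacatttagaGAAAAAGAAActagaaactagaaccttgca
Apol9b, chr15:77729015-77729064, plus strand: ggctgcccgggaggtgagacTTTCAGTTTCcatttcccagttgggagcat

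The stretches of Ifit3 and Ifit3b are the same, and their windows share an exact run of 169 bases. For Slfn8 and Slfn9 the longest exact run was 20 bases, with only the first of the 2 windows of Slfn8 compared. Any changed base ends an exact run, and the printed stretches of Slfn8 and Slfn9 are similar. Counted from the annotated start, the first capital lay at -104 in Ifit1, -156 in Ifit3, -188 in Ifit3b, -120 in Rsad2 and -50 in Phf11b. Ifitm3 and Tdrd7 also held the letters. Among the measured genes with a window, 13 with the letters had a median difference of 1.54 (0.16 to 3.92) and 15 without them one of 1.49 (0.22 to 4.08) on the log2 scale. Ms4a4d, with the largest difference of all, was among those without. Over genes outside the list, 46 of 440 tested genes with the letters rose by at least 1 (10.5%), and 1.80% of 12226 without them. A match is a description of letters and not of binding.

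**Figure D2:**
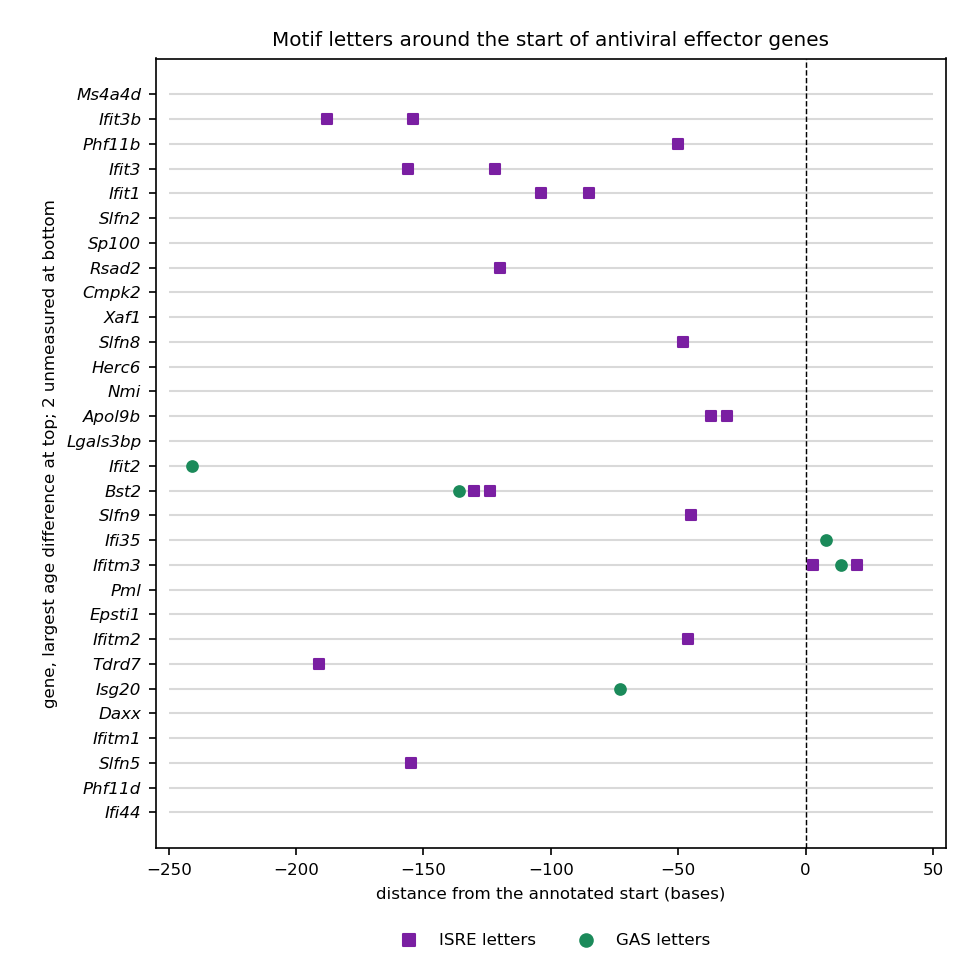
Positions of the ISRE letters (squares) and GAS letters (circles) around the annotated start of 30 antiviral effector genes, in bases from the start, with 1 window per gene. Genes are ordered by their age difference, largest at the top and the 2 unmeasured ones at the bottom, and genes with and without ISRE letters are found among both large and small differences.

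The Ifit proteins, which bind the foreign ends of viral RNA and keep it from being translated, all rose, 4 of 4, beside 18.4% of all genes tested. Their median difference of 3.27 was the highest of the types with more than 1 measured gene. Single genes of other types, such as Ms4a4d, differed by more, and Ifit2 by less than many of them. Ifit1, which recognises RNA caps that lack a host methyl mark, read 9.38, 9.23 and 9.10 on the young arrays and 12.17, 12.18 and 12.17 on the aged arrays. Its aged values thus lay within 0.01 of each other, and it rose 7.65-fold, by 2.94 on the log2 scale (95% confidence interval 2.80 to 3.08, limma adjusted p = 5.11e-09). Ifit3, of the same family, read 7.66, 7.52 and 7.36 in young and 11.08, 11.12 and 11.15 in aged cells. It rose at least 9.65-fold, with a measured difference of 3.61 (3.45 to 3.76). Ifit3b, its near copy, read 6.28, 6.32 and 6.01 in young and 10.09, 10.11 and 10.15 in aged cells. Its measured difference was 3.92 (3.74 to 4.09), and a probe set of either gene may read both, so their separate values are uncertain. Ifit2, which binds AU-rich RNA, rose 2.76-fold, from 7.92 ± 0.13 to 9.39 ± 0.06 (SD, n = 3 each), and its interval of 1.32 to 1.61 lay below those of the other 3.

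Mx1 and Mx2 are dynamin-like GTPases that form rings around viral nucleoprotein complexes. Mx2 read 6.35, 6.11 and 6.10 on the young and 8.57, 8.45 and 8.36 on the aged arrays. It rose at least 1.53-fold, with a measured difference of 2.27 (2.09 to 2.46, limma adjusted p = 1.01e-07). Mx1 read 5.60, 5.50 and 5.63 in young and 7.40, 7.45 and 7.42 in aged cells, dim in both, so its difference of 1.85 (1.72 to 1.97) is one between measured values and no fold is given. Many laboratory mouse strains carry a defective Mx1 gene, and the strain here is not given.

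Of the 4 membrane proteins that stop virus entry or release, 3 rose and Ifitm1 did not pass, beside 18.4% of all genes tested that rose. Bst2 (tetherin), which ties budding particles to the cell, read 11.80, 11.72 and 11.67 in young and 13.16, 13.15 and 13.19 in aged cells, a 2.70-fold rise (difference 1.44, interval 1.35 to 1.52, limma adjusted p = 1.24e-08). Ifitm3, which keeps viruses from fusing with endosome membranes, read 11.52, 11.49 and 11.36 in young and 12.60, 12.63 and 12.62 in aged cells. It rose 2.23-fold. Ifitm2, its close relative, rose 1.73-fold, from 11.03 ± 0.19 to 11.82 ± 0.04 (SD, n = 3 each). Ifitm1, the family member found mostly at the cell surface, read 5.36, 5.28 and 5.63 in young and 5.77, 5.58 and 5.60 in aged cells, dim in both, and the groups overlapped. Its difference of 0.22 had an interval of -0.0049 to 0.45 and did not pass (limma, adjusted p = 0.114). Without the young array of replicate 3, the highest of its group for this gene, the difference was 0.32 with a limma adjusted p = 0.0100, where the other alternatives gave adjusted p-values of 0.0521 or more. Ifitm2 and Ifitm3 are similar in sequence, so their values may not be fully separate. The median difference of the 4 was 0.98.

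Among enzymes that act on nucleotides and RNA, Rsad2 (viperin) turns CTP into a chain terminator for viral polymerases, and its genomic neighbour Cmpk2 is a nucleotide kinase. Rsad2 read 8.08, 7.97 and 7.77 in young and 10.33, 10.31 and 10.31 in aged cells, a 5.19-fold rise and a difference of 2.38 (2.22 to 2.54, limma adjusted p = 3.04e-08). The difference of Cmpk2 was almost the same, 2.37 (2.22 to 2.51), from 7.11 ± 0.13 to 9.47 ± 0.04 (SD, n = 3 each), or at least 3.08-fold. Isg20, an exonuclease that degrades single-stranded RNA, read 8.57, 8.58 and 8.63 in young and 9.10, 9.09 and 9.19 in aged cells. Its rise of 1.45-fold was among the smallest of the genes that passed, with groups still apart.

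Schlafen proteins include regulators of T cell growth and proteins that act on tRNA and limit virus translation. Slfn8 read 8.28, 8.20 and 8.13 in young and 10.23, 10.20 and 10.18 in aged cells, a 4.00-fold rise (difference 2.0, interval 1.90 to 2.10, limma adjusted p = 5.80e-09). Slfn9, its neighbour, read 8.40, 8.37 and 8.17 in young and 9.70, 9.72 and 9.69 in aged cells, a 2.61-fold rise. Slfn2, the short member needed for T cell quiescence, went from 6.66 ± 0.20 to 9.44 ± 0.03 (SD, n = 3 each), at least 3.02-fold. Slfn5 stood apart at 4.55, 4.58 and 4.70 in young and 4.82, 4.70 and 4.80 in aged cells, below the filter, dim and overlapping. With the filter lifted, its difference of 0.16 did not pass (limma, adjusted p = 0.147). Of relatives outside the list, chosen after their values were seen, Slfn3 rose 1.43-fold, while Slfn1 and Slfn4 were dim and below the filter, with differences of -0.06 and 0.02. Slfn8 and Slfn9 are close paralogs whose probe sets may read both.

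PML nuclear bodies are dots in the nucleus that silence incoming viral genomes. All 4 genes of these bodies or related to them rose, beside 18.4% of all genes tested. Daxx, which loads a histone variant that silences DNA, read 9.0, 9.05 and 8.99 in young and 9.53, 9.50 and 9.55 in aged cells. Its rise of 1.42-fold was the smallest of the 33, with a difference of 0.51 (0.44 to 0.58, limma adjusted p = 3.48e-06). Pml, the scaffold of these bodies, rose 2.15-fold, from 7.97 ± 0.10 to 9.07 ± 0.03 (SD, n = 3 each). Sp100, the other constant member, rose from 6.81 ± 0.04 to 9.34 ± 0.03, at least 2.82-fold, with a difference of 2.53. Csprs read 8.77, 8.77 and 8.72 in young and 10.94, 10.90 and 10.86 in aged cells, a 4.44-fold rise. It is named as a component of the Sp100-rs repeat, of which the mouse genome holds many copies, so its probe sets may read several, and its other single-gene probe set differed by 1.93. Atrx, the partner of Daxx, and Rnf4, a ligase that targets Pml, are off the list and fell by 0.43 and 0.20, and Sp110, a relative of Sp100, rose by 0.70 within the dim range; all 3 are named after their values were seen.

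Phf11b, a PHD finger protein of a small cluster of copies, read 6.78, 6.88 and 6.79 in young and 10.58, 10.57 and 10.53 in aged cells. It rose at least 6.56-fold, with a measured difference of 3.74 (3.65 to 3.84, limma adjusted p = 3.11e-10). Its relatives Phf11a and Phf11, outside the list, went from 6.28 to 9.29 and from 5.64 to 7.50, and as near-identical genes all 3 are uncertain.

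Nmi and Ifi35 bind each other and modulate STAT and NF-kappaB signalling. Ifi35 read 7.99, 8.0 and 7.94 in young and 9.36, 9.31 and 9.22 in aged cells, a 2.50-fold rise. Nmi read 7.46, 7.28 and 7.25 in young and 8.90, 8.91 and 8.82 in aged cells, at least 2.04-fold higher. The partners thus had similar differences, 1.32 (1.22 to 1.42) and 1.55 (1.41 to 1.68, limma adjusted p = 1.87e-07).

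Herc6, the mouse ligase that attaches ISG15 to newly made proteins, read 8.05, 8.01 and 7.94 in young and 10.00, 9.98 and 9.95 in aged cells, a 3.93-fold rise. Xaf1, which counters the cell death inhibitor XIAP, read 8.54, 8.39 and 8.36 in young and 10.49, 10.50 and 10.55 in aged cells, a 4.25-fold rise (difference 2.09, limma adjusted p = 1.01e-08). Ifi27l2a, a small membrane protein, went from 6.05 ± 0.10 to 8.68 ± 0.07 (SD, n = 3 each), at least 1.78-fold. Of their relatives, Herc1 and Ifi27, both off the list, fell by 0.64 each on the log2 scale, Ifi27 from 8.59 to 7.95 and Herc1 from 8.61 to 7.97. Named after their values were seen, Herc2 fell by 0.50, Ifi27l2b rose by 0.18 within the dim range, and Herc3 and Herc4, at differences of -0.03 and -0.02, did not pass.

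**Figure D3:**
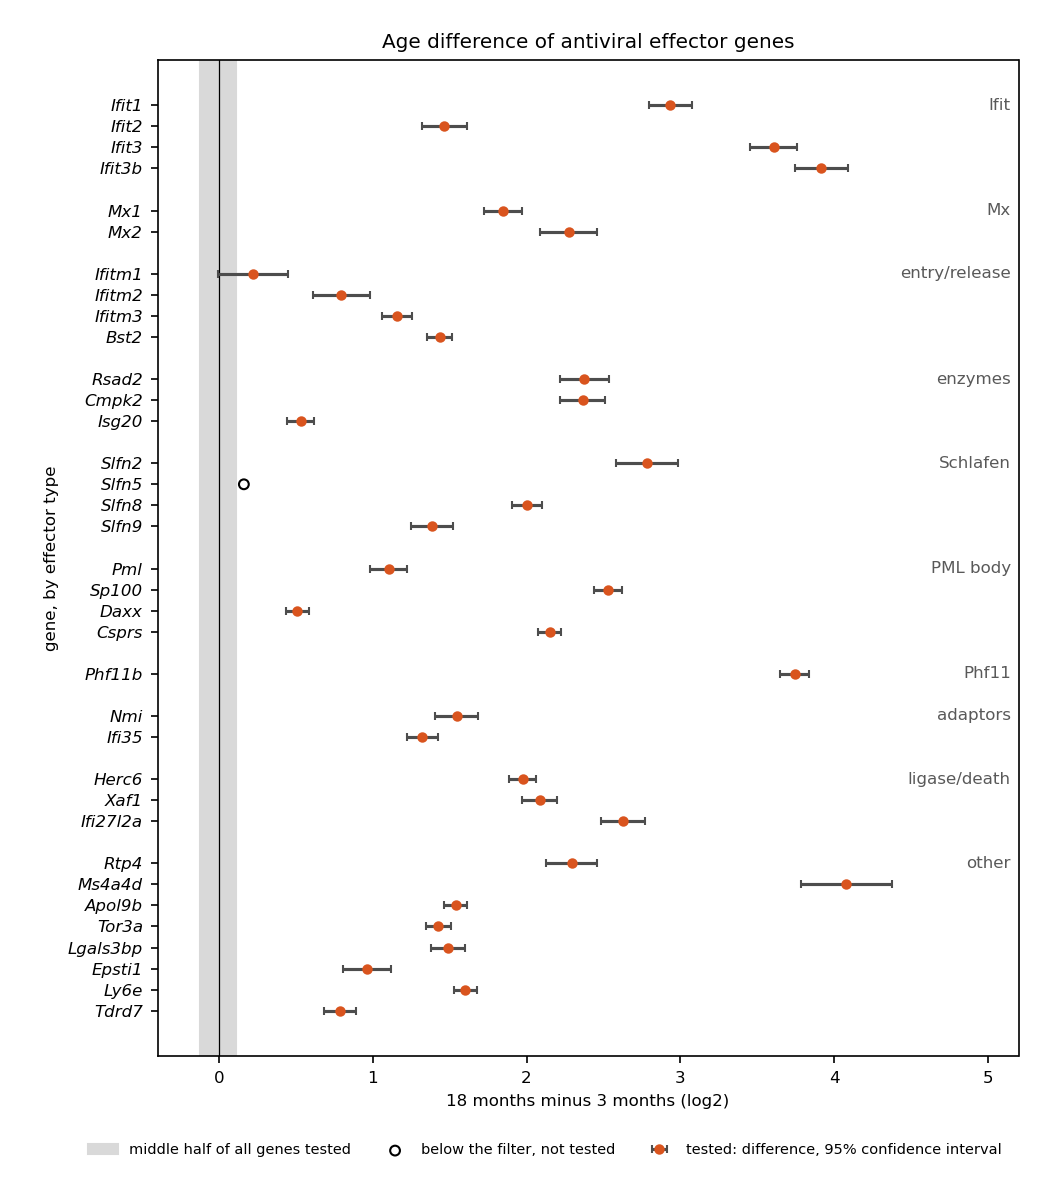
Aged minus young difference on the log2 scale for the 35 measured genes, by effector type, with 95% confidence intervals from limma for the 34 tested and an open circle for Slfn5. The grey area is the interquartile range of all genes tested, -0.12 to 0.11, and the interval of Ifitm1 reaches into it.

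The remaining genes are induced by interferon and have more varied roles. Ms4a4d, a membrane-spanning protein of a family best known from blood cells, had the largest difference of the list. It read 6.42, 5.92 and 5.90 in young and 10.23, 10.20 and 10.05 in aged cells, with a difference of 4.08 (3.79 to 4.38, limma adjusted p = 5.01e-08) and a rise of at least 4.97-fold. Its young arrays were the most spread of all members, with an SD of 0.30. The relatives Ms4a4a, Ms4a4b, Ms4a4c, Ms4a6b, Ms4a6c and Ms4a6d were dim in both ages and below the filter. The highest difference among these relatives, named after their values were seen, was 0.70, for Ms4a4c.

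Lgals3bp, a secreted glycoprotein that binds galectins, read 11.56, 11.42 and 11.36 in young and 12.94, 12.90 and 12.97 in aged cells, a 2.81-fold rise. Tor3a, an ATPase of the endoplasmic reticulum, read 9.67, 9.60 and 9.56 in young and 11.01, 11.05 and 11.06 in aged cells, a 2.69-fold rise (limma, adjusted p = 1.27e-08). Ly6e, a surface protein that blocks coronavirus entry, rose 3.03-fold, and Apol9b, an apolipoprotein L family member, rose 2.90-fold. Apol9a, a near-identical gene named after its value was seen, rose 2.77-fold, so the probe sets of both are uncertain. Rtp4, a receptor transporter that also limits flaviviruses, rose from 7.27 ± 0.15 to 9.57 ± 0.07 (SD, n = 3 each), at least 3.29-fold. Tdrd7, which restrains virus by limiting autophagy, rose 1.73-fold, and Epsti1 rose from 5.68 to 6.64, dim in both ages.

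The spread between arrays of the same age was set beside that of all genes tested. The median SD of the 35 genes was 0.10 between young and 0.03 between aged arrays, and 30 of the 35 varied more among the young arrays, as did 77.9% of all genes tested. The young array of replicate 1 was the highest of its group for 20 of the 35 genes and that of replicate 3 the lowest for 25, where over all genes tested these shares were 43.8% and 42.9%. The median deviation from the young mean was 0.07 on replicate 1 and -0.06 on replicate 3 for these genes, and 0.01 and -0.0046 for all genes tested. The median negative control of the same 2 arrays was 5.06 and 4.93, and its part in the spread was not tested. Among the aged arrays the 3 replicates were lowest for 14, 10 and 11 of the 35 genes, and highest for 12, 5 and 18.

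**Figure D4:**
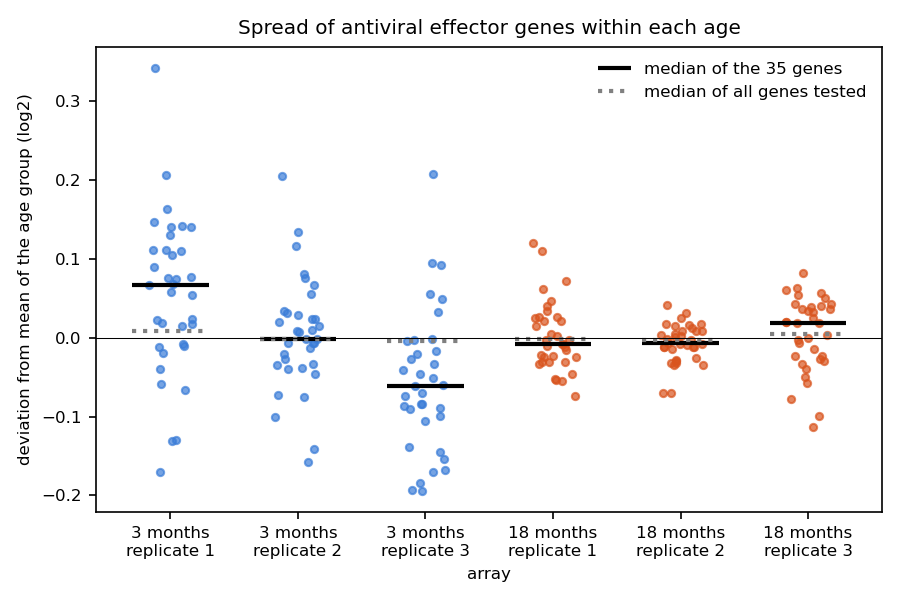
Deviation of each of the 35 measured genes from the mean of its age group, on the log2 scale, for each of the 6 arrays. Black lines are medians of the 35 genes and dotted lines medians of all genes tested. The young arrays spread more widely, with medians of 0.07, -0.0019 and -0.06, than the aged arrays, with medians from -0.0074 to 0.02.

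The interferons themselves were dim. All 8 ligand genes on a list of the pathway read below 7.61 in both ages, 4 were below the filter, and of the 4 tested none passed, with 95% intervals that all included 0. Ifnb1, the interferon that stromal cells make first on sensing a virus, read 4.71, 4.76 and 4.89 in young and 4.89, 4.92 and 4.79 in aged cells, and the groups overlapped. Ifna4 went from 5.94 to 6.06 (limma, adjusted p = 0.176). Ifnk, below the filter, read lower in aged cells, at 3.57 beside 4.04. At these levels a change in ligand RNA may not be detectable.

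Of 7 genes of receptors and kinases, all above the dim range, 4 rose and 1 fell, beside 18.4% and 22.1% of all genes. Each difference was smaller than 0.5 in size on the log2 scale. Ifnar2 rose 1.38-fold, from 9.31 ± 0.02 to 9.77 ± 0.02 (SD, n = 3 each, limma adjusted p = 4.09e-06). Ifngr1, Tyk2 and Jak2 rose by 0.17, 0.18 and 0.09, less than the largest antigenomic shift. Ifnar1 fell by 0.14, beside a median of -0.15 for the positive controls, and did not pass after median centring or without aged replicate 1 or aged replicate 2 (0 of 7 lower in each). Without aged replicate 2, 2 of the 7 rose, and against a difference of 0.3 only Ifnar2 passed. Jak1 and Ifngr2 differed by 0.03 and 0.04 and did not pass (limma, adjusted p = 0.385 and 0.509).

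All 6 measured transcription factors of the pathway rose, beside 18.4% of all genes. Irf7, which amplifies interferon production, had the largest difference, 3.28, from 7.65 ± 0.07 to 10.93 ± 0.01 (SD, n = 3 each). Stat2 rose 4.35-fold and Irf9 rose 2.46-fold, both being parts of the complex that binds the ISRE. Irf1 rose 1.74-fold, and Irf3 and Irf5 rose by 0.32 and 0.40 within the dim range. The 5 genes of the ISG15 system, which tags proteins with a ubiquitin-like modifier, rose too, with a median difference of 1.81. Usp18, which removes ISG15 and damps the receptor, read 9.32, 9.20 and 9.03 in young and 12.09, 12.09 and 12.12 in aged cells, a 7.56-fold rise. Isg15 itself, its activating enzyme Uba7, its conjugating enzyme Ube2l6 and the ligase Trim25 rose by 1.81, 1.66, 1.89 and 1.40. Of 4 further brakes, Socs1 and Socs3 rose 1.27-fold and 1.29-fold, and Pias1 and Ptpn6 did not pass (limma, adjusted p = 0.526 and 0.682).

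**Figure D5:**
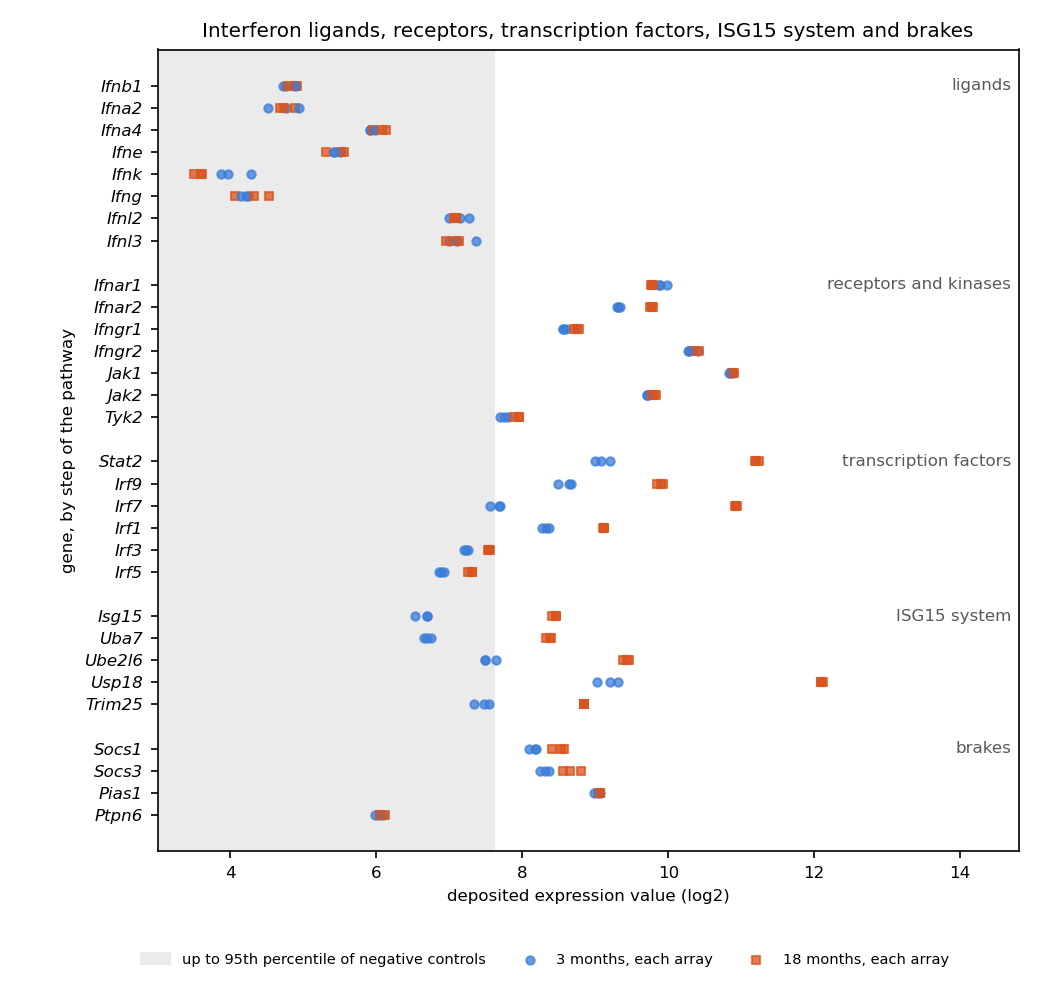
Deposited log2 values on each array for the measured ligands, receptors and kinases, transcription factors, ISG15 genes and brakes of the interferon pathway. Young arrays are circles, aged arrays squares, and the grey area ends at 7.61. The ligands lie within it in both ages, the receptor and kinase genes differ by less than 0.5 between ages, and the largest separations are those of Irf7, Usp18 and Stat2.

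Of 52 family relatives of the effectors, 46 were measured and 29 tested, and 12 of these rose and 6 fell, beside 18.4% and 22.1% of all genes, the median difference being 0.05. Of the 12, Ifit1bl2 and Apol7a had young means of 4.76 and 5.34, below the filter, and passed it through the aged arrays. The 4 highest differences were those of Phf11a (3.01), Lgals9 (2.29), Phf11 (1.86) and Ifit1bl2 (1.60), and the lowest those of Herc1 and Ifi27, named above. Lgals9, a galectin, rose 4.88-fold. Ifit1bl2 was dim in both ages, at 4.76 and 6.36. Among the Ifitm relatives, named after their values were seen, Ifitm6 fell by 0.54 within the dim range, and Ifitm5 and Ifitm7 did not pass (limma, adjusted p = 0.235 and 0.529).

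Blood cells can express the same genes, Bst2 being a known marker of plasmacytoid dendritic cells, so marker lists of such cells were read on the same arrays. Of 43 measured markers, 41 were dim in both ages, among them Siglech, Csf1r, Adgre1, Lyz2, Cd3e, Cd79a and S100a8. Of 28 tested, 6 rose and 1 fell, 18.4% and 22.1% being the shares over all genes. Of the dim ones, Ly6g rose by 0.90, Gzmb by 0.54, Cd14 by 0.35, Camp by 0.25 and Nkg7 by 0.22, named after their values were seen. Gzmb had a young mean below the filter and passed it through the aged arrays. Its place among the 6 that rose thus follows in part from the filter. The 2 above the dim range were Ly6c2, which rose 5.68-fold from 9.91 ± 0.12 to 12.42 ± 0.02 (SD, n = 3 each), and Cox6a2, which fell by 0.18. Ly6c2 has near copies in the Ly6 cluster, so its value is uncertain. The summed un-logged values of 13 macrophage and monocyte markers were 1687 to 1819 on the young arrays and 6206 to 6364 on the aged arrays, and without Ly6c2 767 to 799 and 789 to 813. Those of 5 plasmacytoid dendritic cell markers were 594 to 626 and 544 to 565, and those of 10 T and NK cell markers 441 to 468 and 474 to 488. For 9 neutrophil markers they were 346 to 405 and 439 to 455, and for 6 B cell markers 337 to 379 and 376 to 381. For 8 endothelial markers they were 560 to 571 and 695 to 697, where Kdr and Flt1 rose by 0.69 and 0.63 and Tek and Vwf fell by 0.22 and 0.14, all dim in young cells. Tek, with an aged mean of 5.36, below the filter, passed it through the young arrays. The part of the markers that rose in the effector differences was not tested.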

How the data were processed

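The log2 values that the authors deposited for each probe set and array were used as given. MAS5 is named in the submitters' processing notes; its settings for background, scaling and summarisation are not given in the sources used here. With so few arrays, their number limits the precision.

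Old symbols were replaced by current RefSeq ones (GRCm38.p6), and 31258 of 32750 annotated probe sets had 1 gene. The filter, set at the median transcript cluster (5.40), kept 20187 genes. Ages were compared with limma 3.58.1 in R 4.3.3 (lmFit, eBayes with an intensity trend), p-values were adjusted by Benjamini-Hochberg over all genes tested, and the test was checked on simulated arrays. Figures used matplotlib 3.10.9.

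Members and lists were chosen with earlier results of these data known. By rule, every array's value is printed for the 2 brightest members of each effector type, the 3 largest and 3 smallest differences, and members not passing. The rule for relatives covers the 4 highest and 2 lowest differences, and further relatives were named after their values were seen. Alternatives changed scaling, filter, probe set, variance model, replicate block and arrays.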

Additional observations from a re-analysis of the deposited data

How the results depend on the processing

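Of the 34 tested effector genes, 33 rose and 0 fell under quantile normalization, median centring, no filter, both other choices of probe set, both other variance models and the test against a difference of 0.3, which was chosen after the data were seen. The labels do not say whether the replicate numbers pair the samples. Same-numbered arrays had deviations from their group means correlated at -0.05, 0.07 and 0.02 across genes. Differently numbered arrays gave -0.08 to 0.04, and correlations this small cannot settle the pairing. With the replicate block 33 rose as well. The counts of all genes higher in aged and all genes lower in aged cells were then 3524 and 4204, beside 3724 and 4471 without the block. Leaving out 1 array gave 33 to 34 effector genes higher, the 34th being Ifitm1 without young replicate 3. A stricter filter, at a mean of 6.53, left 31 higher, with 1 of the 2 Mx genes and a median difference of 1.98, since fewer genes were tested. Ifit3b, Mx2, Ifi27l2a and Ms4a4d, with young means of 6.20, 6.18, 6.05 and 6.08, passed that filter through the aged arrays. This count and median thus follow in part from the filter. Without a filter the median was 1.60, as Slfn5 was added, and 1 ligand gene, Ifnk, was lower. The receptor and kinase genes were the least settled: 0 were lower after median centring, leaving out 1 array gave 2 to 4 higher and 0 to 1 lower, and against a difference of 0.3 there were 1 higher and 0 lower, with 0 brakes and 1169 and 816 of all genes higher and lower. The cause was not tested. Signal over background limits the 15 genes that were dim in young cells.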
